A study of Mus musculus with 12 samples.

Results

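The mitochondrial ribosomal protein genes, here all genes whose symbol is Mrpl or Mrps followed by a number and at most one letter from a to c, were described in isolated mouse islets after inactivation of Taf4 in beta cells. The rule found 76 members among the 34820 genes of the count table, 47 of the large subunit by name (Mrpl) and 29 of the small subunit (Mrps), and used no measured value. All 76 are annotated as protein coding in GENCODE M1 on NCBIM37, the assembly also called mm9. A low-count filter kept 75 of them, and left out Mrpl53, a large-subunit protein, which had 0 to 5 reads per library. A further 4 genes listed as pseudogenes of members by their symbols (Mrpl23-ps1, Mrpl48-ps, Mrps36-ps1 and Mrps36-ps2) did not match the rule, with 0 to 18 reads per library.

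Islets came from C57/Bl6 mice that carried the tamoxifen-inducible Ins1::Cre-ERT2 transgene, which the Ins1 promoter restricts to beta cells. Wild-type animals carried the transgene with Taf4+/+ alleles and mutant animals with Taf4 lox/lox alleles, and both were injected with tamoxifen on 3 days at an age of 11 to 13 weeks. The table held 11 libraries, 3 of wild type, 3 of mutant islets at 1 week, 3 at 3 weeks and 2 at 5 weeks after tamoxifen. The labels list 12 samples, and replicate 1 at 5 weeks was not analysed here. Each replicate held the islets of 2 mice, the labels give no time for wild type, and a sample of isolated islets mixes cell types, so a lower level in 1 cell type and fewer cells of that type cannot be told apart.

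Mitochondria translate the few proteins encoded by their own DNA, all of them components of the oxidative phosphorylation machinery, on ribosomes of their own. In mammals the RNAs of these ribosomes come from mitochondrial DNA, whereas every protein of the large and the small subunit is encoded in the nucleus, made in the cytosol and imported. One set of the proteins descends from the bacterial ribosome and another arose in the eukaryotic lineage. In beta cells the ATP that oxidative phosphorylation supplies couples glucose uptake to insulin secretion. Taf4 is a subunit of TFIID, the general factor that binds core promoters.

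The promoters of 4 members are shown because the results turn on these genes. Mrpl2 had the largest rise at 5 weeks, Mrpl39 the largest at 3 weeks, Mrps27 rose at 5 weeks and carries matches to a pair of motifs, and Mrpl34 had the largest fall at 3 weeks. The sequences are RefSeq promoters on GRCm38.p6, 300 bases each, from 250 bases before the annotated start to 50 after it, read on the gene's strand. Capitals mark matches on either strand to the NRF1 core CGCATGCG (which reads the same on both strands), the ETS core CCGGAAG bound by GABP, the YY1 core AAGATGGCG or the TATA box TATAAA. Where a gene had several entries, as Mrpl2 with 3, the first is shown.
Mrpl2, chr17:46645971-46646270, plus strand: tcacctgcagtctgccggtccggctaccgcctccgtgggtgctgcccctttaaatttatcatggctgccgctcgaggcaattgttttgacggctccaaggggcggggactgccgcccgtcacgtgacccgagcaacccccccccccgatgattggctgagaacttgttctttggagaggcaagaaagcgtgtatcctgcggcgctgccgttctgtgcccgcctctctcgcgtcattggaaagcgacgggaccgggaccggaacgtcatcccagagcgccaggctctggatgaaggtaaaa
Mrpl39, chr16:84735195-84735494, minus strand: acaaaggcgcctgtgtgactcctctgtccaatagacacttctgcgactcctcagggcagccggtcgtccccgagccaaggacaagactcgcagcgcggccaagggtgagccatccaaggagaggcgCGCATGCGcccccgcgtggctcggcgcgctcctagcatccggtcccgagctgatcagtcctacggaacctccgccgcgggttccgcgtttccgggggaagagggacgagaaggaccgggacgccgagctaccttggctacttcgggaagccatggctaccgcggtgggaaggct
Mrps27, chr13:99344536-99344835, plus strand: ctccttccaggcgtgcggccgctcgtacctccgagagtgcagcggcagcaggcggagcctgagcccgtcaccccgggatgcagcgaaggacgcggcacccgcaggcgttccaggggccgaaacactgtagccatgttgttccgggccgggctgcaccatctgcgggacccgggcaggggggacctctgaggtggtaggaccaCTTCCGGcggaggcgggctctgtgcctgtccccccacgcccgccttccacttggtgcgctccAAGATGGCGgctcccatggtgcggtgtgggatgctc
Mrpl34, chr8:71464676-71464975, plus strand: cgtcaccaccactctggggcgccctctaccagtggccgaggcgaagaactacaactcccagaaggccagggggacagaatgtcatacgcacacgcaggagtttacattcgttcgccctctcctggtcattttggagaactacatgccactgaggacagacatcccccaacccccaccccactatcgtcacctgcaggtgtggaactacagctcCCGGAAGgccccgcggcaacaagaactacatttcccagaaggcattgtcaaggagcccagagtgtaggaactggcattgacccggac

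None of the 4 motifs matched in the Mrpl2 promoter. The NRF1 match in Mrpl39 begins 124 bases before the start, the Mrps27 promoter has an ETS match 48 bases before the start and a YY1 match 14 bases after it, and the ETS match in Mrpl34 begins 37 bases before the start. Over the members, 67 of 76 had a RefSeq promoter under their symbol. The ETS core was in 24 of these 67 promoters (35.8%), against 15.4% of the 12622 tested genes with a promoter. The YY1 core was in 8 members (11.9%, against 2.65% of all) and the NRF1 core in 7 (10.4%, against 3.43%). The TATA box was in 5 members (7.46%), fewer than the 10.6% over all genes. None of the NRF1, ETS and YY1 cores matched in 33 of the 67 promoters, 1 of them in 29 and a pair in 5. Among members that rose at 5 weeks the ETS core was in 9 of 30, and among the other tested members in 14 of 36. The same split was 2 of 30 against 6 of 36 for the YY1 core, 5 of 30 against 2 of 36 for the NRF1 core and 4 of 30 against 1 of 36 for the TATA box. These matches describe letters in a window and are not binding sites.

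Library totals ran from 13865518 to 21581153 counts, of which the members took 9785 to 41362. The RNA of exocrine acinar cells made up a large and unequal part of the libraries. Of 33 acinar genes found, such as trypsins and amylases, the summed share of counts was 28.6% to 51.3% in wild type, 7.02% to 24.4% at 1 week, 3.34% to 4.63% at 3 weeks and 0.0341% to 0.225% at 5 weeks, where 30 of the 33 were still detected in each library. Of the acinar genes, Amy2a5 was at 0 in both 5-week libraries and Ptf1a, Try10, Prss1 and Prss3 each in 1 of them. Markers of alpha cells held 2.24% to 4.13% in wild type and 9.24% to 17.8% in the mutant groups. Singly, 5, 2 and 1 of 7 tested alpha markers were called higher at 1, 3 and 5 weeks and 0 lower. All-gene shares were 5.34%, 8.24% and 15.0% higher and 4.42%, 7.76% and 14.1% lower. The median log2 fold changes of these alpha markers were 1.75, 0.19 and 0.45. Markers of beta cells held 8.93% to 16.2% in wild type, 14.0% to 20.9% at 1 week, 16.7% to 19.3% at 3 weeks and 4.81% to 9.57% at 5 weeks. This summed beta share does not stand for the single markers. The 10 beta markers had a median log2 fold change of -0.66 at 1 week, -0.62 at 3 weeks and -1.225 at 5 weeks. Ins2 went the other way at 1 and 3 weeks (1.42 and 1.19). The wild-type libraries had 345 to 642 counts of each of the Y-linked genes Ddx3y, Eif2s3y, Uty and Kdm5d and the mutant libraries 0 to 2, while Xist stood at 8.68 to 36.3 CPM in wild type and 1593 to 2050 CPM in the mutants. In the comparisons with wild type, genotype and sex-linked expression therefore cannot be told apart. With the acinar genes removed before scaling, 11 members were higher than wild type and 0 lower at 1 week, 14 were higher and 3 lower at 3 weeks and 34 were higher and 0 lower at 5 weeks, each within 1.5 times of the counts without this step. Over all genes that scaling called 6.07%, 8.94% and 16.3% higher at the 3 times and 4.24%, 7.54% and 13.6% lower. Beyond this, the part that the acinar and alpha-cell shares had in the results was not tested. Counts of Taf4a, the symbol of the targeted gene in this annotation, were 29.7, 23.0 and 29.8 CPM in wild type and 21.7 to 37.0 CPM over the mutant libraries, with no call at any time (adjusted p = 0.53, 0.87 and 0.54 at 1, 3 and 5 weeks). The count covers the whole gene and every islet cell, and the sources used here do not state which exons are deleted, so it does not check the inactivation.

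Levels are given as CPM, which are counts relative to a library total scaled with TMM factors (trimmed means of M-values). Summed over the 75 members, the level was 914, 870 and 1093 CPM in wild type and 1140, 1230 and 1310 CPM at 1 week. It was 988, 1081 and 1076 CPM in the 3-week libraries and 1574 and 1212 CPM in the 5-week libraries. Every 1-week and every 5-week library lay above the highest wild-type library, whereas the 3-week libraries overlapped with wild type. The large and small subunits moved together. The ratio of summed Mrpl to summed Mrps CPM stayed between 1.83 and 1.95 in all 11 libraries. Set against all genes of the same library, the median member stood 0.90, 0.92 and 1.15 above the median gene on the log2 CPM scale in wild type. The distance was 1.23, 1.41 and 1.44 at 1 week, then 1.28, 1.27 and 1.48 in the 3-week libraries and 1.87 and 1.51 in the 5-week libraries. On this measure, which the scaling of a library does not move, none of the 8 mutant libraries overlapped with wild type.

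**Figure D1:**
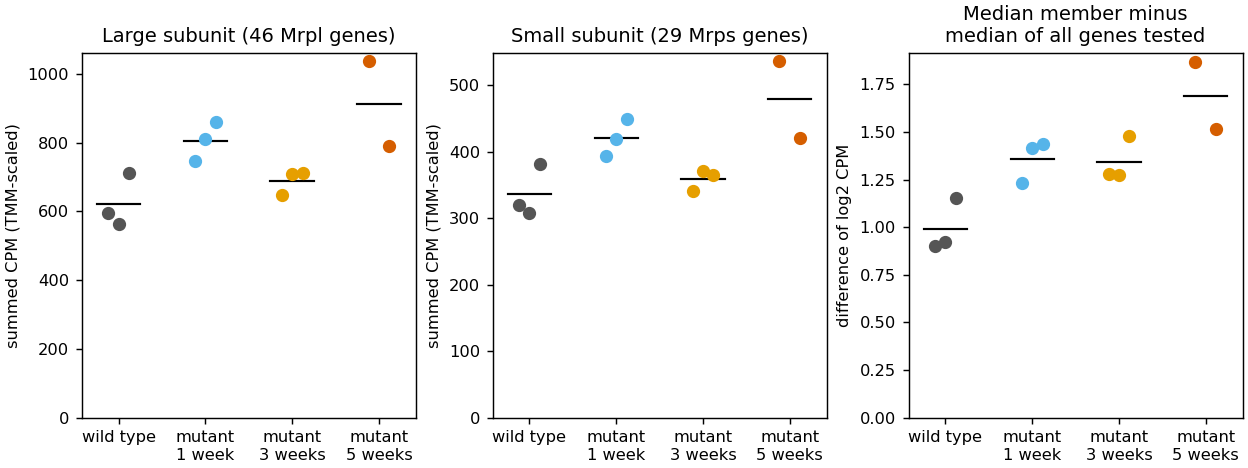
Summed TMM-scaled CPM of the large-subunit (left) and small-subunit members (middle), and the median log2 CPM of the 75 members minus that of all 20180 genes tested (right), by group; each point is a library and the line is the group mean. All 8 mutant libraries lie above wild type in the right panel, from 1.23 to 1.87 against 0.90 to 1.15, while the 3-week libraries overlap with wild type in the sums.

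Levels between members are compared per kilobase of union exon length, as CPM per kb. In wild type they spread from a mean of 0.57 for Mrpl23 to 67.6 for Mrpl52, around a median of 5.24. The highest were Mrpl52, a mitochondria-specific protein, with 71.4, 51.8 and 79.5 CPM per kb, Mrpl36, the homologue of bacterial L36, with 40.6, 28.7 and 37.1, and Mrpl34, the homologue of L34, with 27.1, 19.9 and 34.9. The lowest were Mrpl23, the homologue of L23 at the exit of the peptide tunnel, with 0.26, 0.84 and 0.61 CPM per kb, and the mitochondria-specific small-subunit proteins Mrps34, with 0.63, 0.93 and 0.96, and Mrps25, with 0.74, 1.06 and 1.02. The gene span of Mrps34 overlaps that of Nme3 on its own strand and that of Mapk8ip3 on the other. Over all members 8 overlap a gene on the same strand and 28 a gene on the other strand. These are overlaps of whole gene spans, introns included, and overlap of exons was not checked. The authors counted in the union mode of HTSeq and kept unambiguous reads. Reads that also fall in an exon of another gene are therefore missing from the counts. This holds for a gene on the other strand too unless strand was used, which the sources used here do not state.

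The first question was whether the members had changed 1 week after tamoxifen. At an adjusted p under 0.05 in edgeR's quasi-likelihood test, with Benjamini-Hochberg adjustment over all 20180 genes tested, 9 of 75 members were higher and 0 lower. Over all genes 5.34% were called higher and 4.42% lower, so the share of members called higher was 12.0%. At an unadjusted p under 0.05 the members divided into 28 higher and 0 lower, against 12.9% and 12.8% of all genes, and DESeq2 called 14 higher and 0 lower, against 6.98% and 5.48%. The median log2 fold change of the members was 0.37, against -0.04 over all genes. All wild-type libraries lay below all 1-week libraries for 34 of 75 members, against 15.1% of all genes, and above them for 1, against 15.7%. With the study's additional threshold of a log2 fold change beyond 1, 1 member was higher and 0 lower (1.65% and 2.92% of all genes).

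The member with the largest rise at 1 week was Mrpl41, a mitochondria-specific large-subunit protein that binds BCL2 in human cells. It had 8.41, 9.46 and 12.3 CPM in wild type and 18.1, 24.1 and 24.0 CPM at 1 week, a log2 fold change of 1.13 (SE 0.22, edgeR adjusted p = 0.0040). The groups were well apart at that time. At 3 weeks Mrpl41 had 14.3, 13.8 and 19.3 CPM (0.65, SE 0.22, edgeR adjusted p = 0.052), above wild type in each library but short of a call. At 5 weeks it had 20.8 and 12.4 CPM and was called higher (0.72, SE 0.24, edgeR adjusted p = 0.031), with the first library inside the 1-week range and the second next to the highest wild-type value. The differences of Mrpl41 between mutant times did not pass the test (edgeR adjusted p = 0.23 and 0.26 for 3 and 5 weeks against 1 week). Mrpl32, the homologue of bacterial L32, which in mammals is matured by the mitochondrial AAA protease, had 5.42, 6.40 and 7.96 CPM in wild type and 12.9, 10.7 and 13.4 CPM at 1 week (0.90, SE 0.24, edgeR adjusted p = 0.022). Mrpl55, another large-subunit protein, had 2.99, 4.91 and 4.25 CPM in wild type and 5.06, 9.50 and 9.09 CPM at 1 week (0.95, SE 0.27, edgeR adjusted p = 0.033). One of its 1-week libraries was close to the highest wild-type library.

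Mrpl2 and Mrpl39 were among the 5 largest rises at both 1 and 3 weeks, in comparisons that share the wild-type libraries. Mrpl2, the homologue of L2 that sits near the peptidyl transferase centre (mm9 chr17:46783178-46787088), had 5.60, 6.83 and 7.51 CPM in wild type. It had 11.4, 15.9 and 12.2 CPM at 1 week, then 12.96, 14.8 and 13.5 in the 3-week libraries and 21.0 and 17.5 in the 5-week libraries. No mutant library overlapped with wild type, and the 5-week libraries were the highest of all. The log2 fold changes of Mrpl2 were 0.98 (SE 0.19), 1.04 (SE 0.19) and 1.53 (SE 0.21), with edgeR adjusted p of 0.0042, 0.0011 and 2.64e-05. Its differences between mutant times did not pass the test (edgeR adjusted p = 0.069 for 5 weeks against 1 week and 0.12 against 3 weeks). The gene model Gm16736 overlaps Mrpl2 on the same strand. Mrpl39, a mitochondria-specific large-subunit protein (mm9 chr16:84717821-84735987), had 12.1, 12.4 and 13.2 CPM in wild type, a narrow range, and 18.9, 24.0 and 27.0 CPM at 1 week. It reached 31.6, 21.2 and 32.7 CPM at 3 weeks and stood at 26.4 and 19.1 CPM at 5 weeks. The log2 fold changes of Mrpl39 were 0.89 (SE 0.20), 1.18 (SE 0.20) and 0.85 (SE 0.21), with edgeR adjusted p of 0.0086, 0.00046 and 0.0057.

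The 1-week count rested on single libraries. It fell to 3 without wild-type replicate 1, to 4 without wild-type replicate 2 and to 4 without 1-week replicate 3. The share of all genes called higher fell as well in these fits, from 5.34% to 2.2%, 2.78% and 3.06%. Mrpl2, Mrpl39 and Mrpl41 were called whichever library was left out. With libraries scaled to the summed counts of 12 pan-endocrine genes, which moved the median of all genes from -0.04 to -0.27 at 1 week, 3 members were higher and 0 lower, against 2.02% and 8.91% of all genes.

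At 3 weeks the members divided. In the same test 11 of 75 were higher and 3 lower, against 8.24% and 7.76% of all genes. The share of members called lower (4.0%) was thus below that of all genes. The median log2 fold change of the members was 0.24 against -0.05 over all genes. The values spread from -1.13 to 1.18, and 44 members lay above 0 and 31 below. Groups did not overlap for 28 members that were above wild type and 5 that were below, against 20.7% and 19.4% of all genes. Past a log2 fold change of 1 as well, 3 members were higher and 1 lower (1.6% and 5.05% of all genes).

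Beside Mrpl39 and Mrpl2, the largest rises at 3 weeks were those of Mrpl55, Mrps18c and Mrpl16. Mrpl55 had 8.22, 7.82 and 8.98 CPM at 3 weeks (1.03, SE 0.27, edgeR adjusted p = 0.012). Mrps18c, which is one of 3 mammalian proteins related to bacterial S18, had 3.55, 3.13 and 4.43 CPM in wild type and 7.20, 7.38 and 6.94 at 3 weeks (0.96, SE 0.29, edgeR adjusted p = 0.030). Mrpl16, the homologue of L16, had 8.22, 7.11 and 12.7 CPM in wild type and 15.7, 17.7 and 12.9 at 3 weeks (0.73, SE 0.22, edgeR adjusted p = 0.026). For Mrpl16 the groups nearly met, at 12.7 and 12.9 CPM.

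The 3 members that fell at 3 weeks were Mrpl34, Mrps28 and Mrps5. Mrpl34 (mm9 chr8:73988825-73989651) had 17.5, 12.8 and 22.5 CPM in wild type and 7.24, 10.0 and 6.74 CPM at 3 weeks. It had 17.4, 14.6 and 19.5 CPM at 1 week and 17.2 and 13.8 CPM in the 5-week libraries. Only the 3-week libraries were low. The log2 fold change of Mrpl34 at 3 weeks against wild type was -1.13 (SE 0.22, edgeR adjusted p = 0.0017), and the difference of 3 weeks from 1 week was -1.10 (SE 0.22, edgeR adjusted p = 0.0079). Mrps28, a small-subunit protein, had 17.5, 19.3 and 25.1 CPM in wild type and 11.9, 11.4 and 11.9 CPM at 3 weeks (-0.81, SE 0.22, edgeR adjusted p = 0.016). The gene models Gm15466 and Gm15467 overlap Mrps28, the latter on the other strand. Mrps5, the homologue of S5, had 14.1, 15.9 and 14.7 CPM in wild type and 9.95, 10.6 and 8.09 CPM at 3 weeks (-0.64, SE 0.19, edgeR adjusted p = 0.026). These 3 falls depended on the scaling, since with library totals alone none of Mrpl34, Mrps28 and Mrps5 was called lower. The log2 fold change of Mrps5 was then 0.01.

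The split at 3 weeks depended on the scaling too. Library totals alone, which moved the median of all genes from -0.05 to 0.61, gave 47 members higher and 0 lower, against 35.6% and 2.55% of all genes. Scaling to the pan-endocrine genes, which moved it to -0.28, gave 3 higher and 4 lower, against 2.44% and 12.1% of all genes. The share of members called lower was below the background there, as in the reported fit. The distance of the members' median from that of all genes was 0.30 in the reported fit and 0.28 and 0.30 under these scalings. Left-out libraries moved the counts as well. Members called higher numbered 2 without wild-type replicate 1, 4 without wild-type replicate 2, and 6, 4 and 3 without 3-week replicates 1, 2 and 3. In the same order, 4.45%, 5.42%, 5.25%, 5.34% and 4.41% of all genes were called higher. Without wild-type replicate 3, or without 3-week replicate 3, only 1 member was called lower, against 5.23% and 5.01% of all genes. Mrpl2, Mrpl39 and Mrpl34 were called whichever library was left out.

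**Figure D2:**
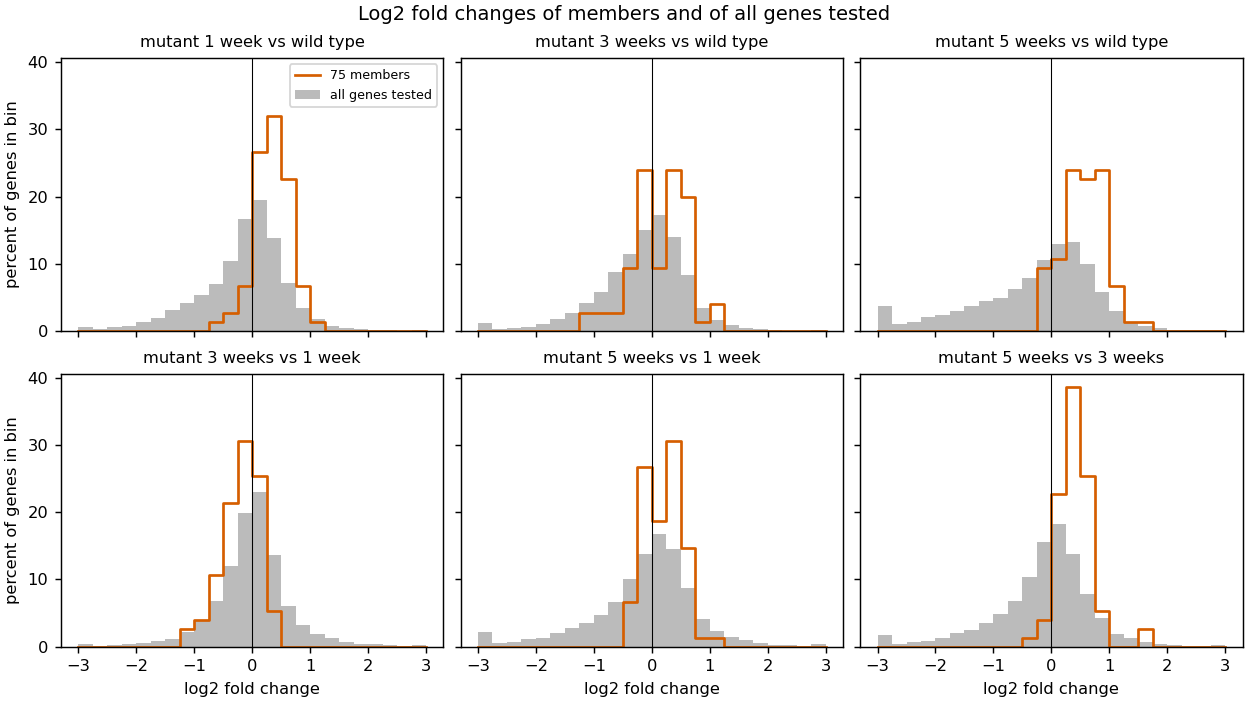
Distribution of log2 fold changes in 6 comparisons, in bins of 0.25, as a percentage of the 75 members (line) and of all 20180 genes tested (grey bars); values beyond -3 or 3 are in the end bins. The members lie to the right of all genes at 1 and 5 weeks, with medians of 0.37 and 0.56, and spread widely at 3 weeks, from -1.13 to 1.18.

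At 5 weeks 34 of 75 members (45.3%) were higher and 0 lower, against 15.0% and 14.1% of all genes. The members' median log2 fold change was 0.56, against -0.03 over all genes, with 68 of 75 members above 0. DESeq2 called 33 higher and 0 lower, against 15.6% and 16.1% of all genes, and at an unadjusted p under 0.05 there were 43 higher and 0 lower, against 20.4% each way. All wild-type libraries lay below both 5-week libraries for 45 members and above them for 1, against 26.3% and 28.0% of all genes. Past a log2 fold change of 1, 7 members were higher and 0 lower (4.26% and 11.2% of all genes).

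Behind Mrpl2, the next 4 rises by size were all of small-subunit genes. Mrps18c had 13.2 and 6.92 CPM at 5 weeks, against 3.13 to 4.43 in wild type (1.44, SE 0.31, edgeR adjusted p = 0.0019), and its 5-week libraries were far apart. Mrps26, a mitochondria-specific protein, had 11.02, 8.89 and 11.3 CPM in wild type and 20.6 and 28.6 CPM at 5 weeks. Between these it had 14.0, 16.6 and 15.3 CPM at 1 week and 14.7, 15.4 and 15.4 CPM in the 3-week libraries. The groups of Mrps26 formed separate steps, with 1 and 3 weeks at the same height. Its log2 fold change at 5 weeks was 1.25 (SE 0.19, edgeR adjusted p = 9.04e-05). Mrps27, a protein of the pentatricopeptide repeat family, had 3.46, 5.48 and 4.43 CPM in wild type and 10.3 and 9.88 at 5 weeks (1.17, SE 0.26, edgeR adjusted p = 0.0023). Mrps25 had 4.86, 6.97 and 6.69 CPM in wild type and 12.9 and 13.8 at 5 weeks (1.11, SE 0.24, edgeR adjusted p = 0.0020). For Mrps27 and Mrps25 the 5-week libraries lay close together. Genes on the other strand overlap Mrps26, Mrps27 and Mrps25, the last with Nr2c2.

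**Figure D3:**
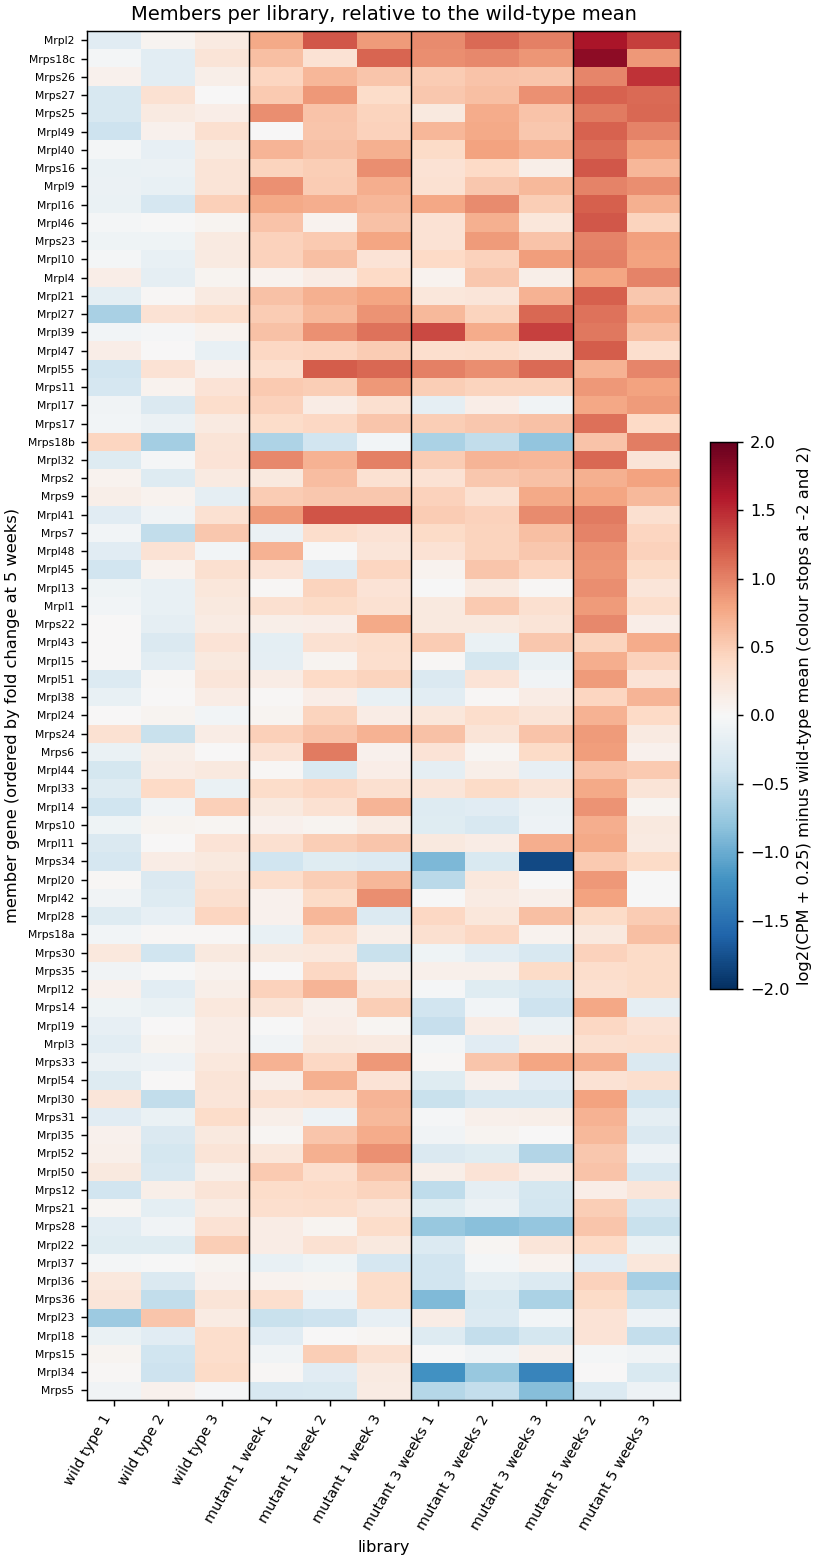
Each tested member (rows, ordered by the log2 fold change at 5 weeks) in each of 11 libraries (columns), as log2(CPM + 0.25) minus the mean of the 3 wild-type libraries. Red is above the wild-type mean and blue below it; the column of 5-week replicate 2 is redder than that of replicate 3, and Mrpl34 and Mrps28 are blue in the 3-week columns.

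The 5-week libraries differed from each other in these genes. Replicate 2 was above replicate 3 for 57 of 75 members, with a median log2 ratio of 0.47, whereas over all genes the median ratio was -0.06. Mrpl30, the homologue of L30, had 65.1 CPM in replicate 2 and 28.7 in replicate 3, and Mrpl36 had 43.5 and 19.9. The difference was not in every member, as Mrps26 (20.6 and 28.6 CPM) and Mrps18b (5.11 and 7.03 CPM) went the other way. Leaving out either replicate leaves 1 library at 5 weeks. The median distance of the members from all genes was 0.46 without replicate 2 and 0.88 without replicate 3, against 0.59 with both. Mrps18c lost its call without replicate 2. Members called at 5 weeks whichever library was left out were Mrpl2, Mrpl4, Mrpl9, Mrpl10, Mrpl17, Mrpl40, Mrpl49, Mrps2, Mrps11, Mrps23, Mrps25, Mrps26 and Mrps27. The share of all genes that kept a call in this way was not computed, so this list has no background to be read against. Library totals alone gave 73 higher and pan-endocrine scaling 65, each with 0 lower. The background moved with them, as 49.4% and 35.1% of all genes were called higher and the median of all genes stood at 0.95 and 0.44.

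**Figure D4:**
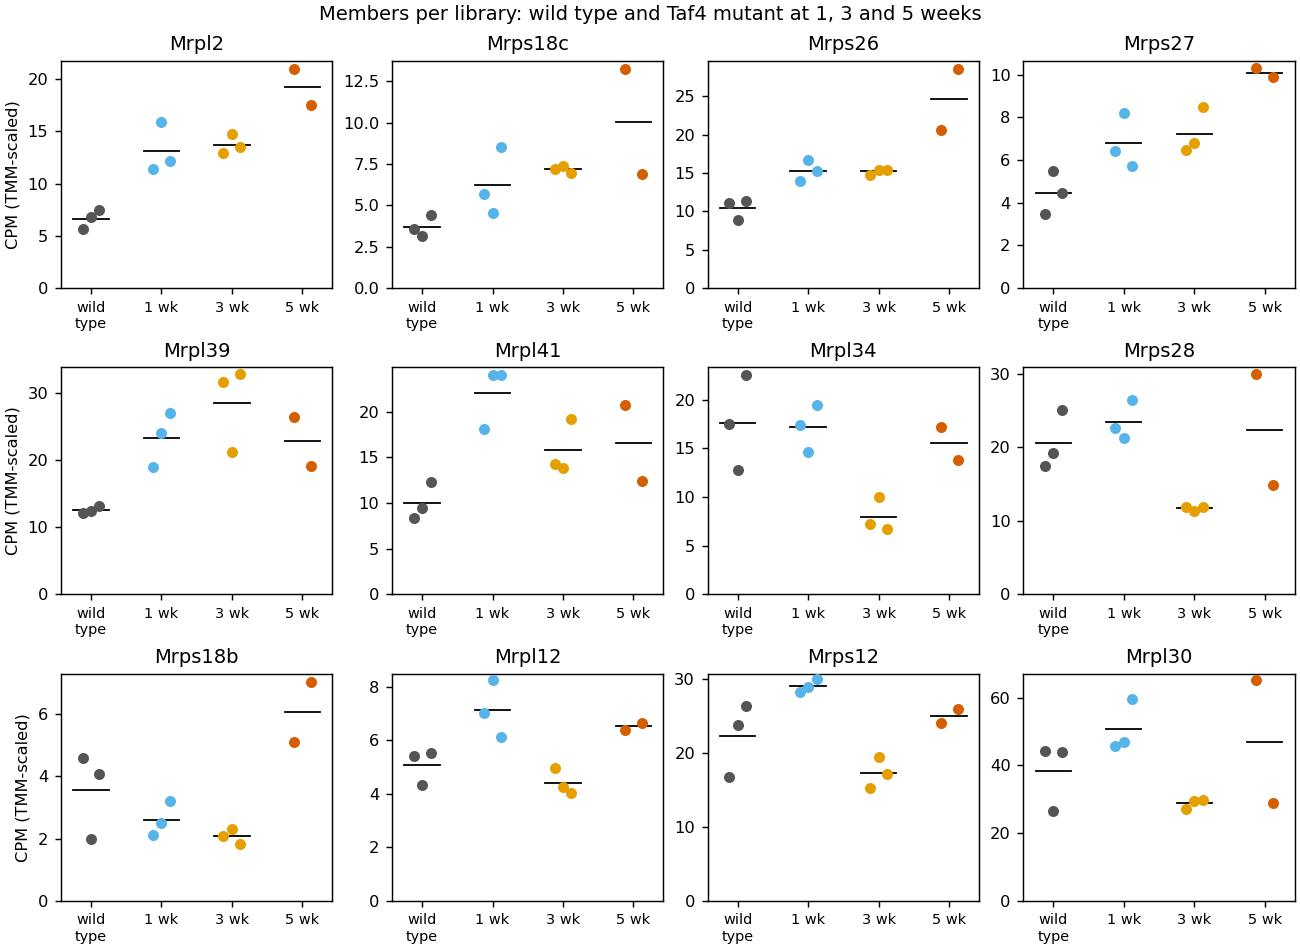
TMM-scaled CPM of 12 members in each library of wild type and of Taf4 mutant islets at 1, 3 and 5 weeks; each point is a library, the line is the group mean, and each panel has its own scale from 0. Mrpl2 and Mrps26 are highest at 5 weeks, Mrpl34 and Mrps28 are low at 3 weeks, and the 2 libraries at 5 weeks are far apart for Mrps18c, Mrps28 and Mrpl30.

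Mutant groups were compared with each other to follow the members over time without the wild-type libraries. From 1 to 3 weeks 0 members were called higher and 4 lower, against 0.942% and 2.87% of all genes, and the members' median log2 fold change was -0.18, against 0.01. At an unadjusted p under 0.05, 0 were higher and 15 lower, against 7.91% and 10.3% of all genes, and DESeq2 called 0 higher and 5 lower, against 1.85% and 4.58%. Mrpl34 and Mrpl52 had the largest falls. Mrpl52 had 32.0, 44.9 and 52.1 CPM at 1 week and 22.4, 23.0 and 18.2 at 3 weeks (-1.02, SE 0.21, edgeR adjusted p = 0.0087). No 3-week library reached the 1-week range. Mrps12, the homologue of S12 at the decoding centre, had 28.3, 29.0 and 30.0 CPM at 1 week and 15.3, 19.4 and 17.2 at 3 weeks (-0.75, SE 0.17, edgeR adjusted p = 0.016). Without 1-week replicate 3 or without 3-week replicate 1 the count of falls was 1, against 1.41% and 0.86% of all genes. Without 3-week replicate 3 the count was 0, against 0.828% of all genes. With library totals alone 3 members were higher and 0 lower, against 10.4% and 1.26% of all genes, with the median of all genes at 0.49.

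From 3 to 5 weeks 9 members were called higher and 0 lower, against 6.07% and 5.71% of all genes. The median log2 fold change of the members was 0.38, against -0.01, with 71 of 75 above 0. DESeq2 gave 13 higher and 0 lower, against 7.17% and 7.34% of all genes, and an unadjusted p under 0.05 gave 30 higher and 0 lower, against 13.3% and 12.6%. Mrps18b, another relative of bacterial S18, had 2.08, 2.31 and 1.83 CPM at 3 weeks and 5.11 and 7.03 at 5 weeks (1.55, SE 0.35, edgeR adjusted p = 0.0071). Its wild-type libraries, at 4.58, 1.99 and 4.07 CPM, overlapped with the 1- and 3-week libraries, and no comparison of Mrps18b with wild type passed the test. Mrps34 had 0.81, 1.34 and 0.31 CPM at 3 weeks and 2.57 and 2.32 at 5 weeks (1.55, SE 0.50, edgeR adjusted p = 0.049), all low levels. Without 3-week replicates 1 or 3 the count of rises was 4, against 3.18% and 3.31% of all genes. Without 5-week replicate 2 or 3, which leaves 1 library at 5 weeks, the members' median stood 0.21 and 0.61 above that of all genes. Library totals gave 23 higher and pan-endocrine scaling 71, each with 0 lower, against 9.84% and 43.9% of all genes higher and with the median of all genes at 0.31 and 0.68.

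From 1 to 5 weeks 4 members were called higher and 0 lower, against 7.68% and 8.76% of all genes, a share of members (5.33%) below the background. At an unadjusted p under 0.05 there were 15 higher and 0 lower, against 14.6% and 14.5% of all genes, and DESeq2 called 6 higher and 0 lower, against 8.39% and 10.6%. Mrpl49, a mitochondria-specific protein, had 13.4, 19.6 and 18.4 CPM at 1 week and 30.6 and 26.6 at 5 weeks (0.74, SE 0.21, edgeR adjusted p = 0.020), and Mrps18b rose by 1.23 on the log2 scale (SE 0.36, edgeR adjusted p = 0.025). Without 1-week replicate 1 only 1 member was called higher, against 5.61% of all genes. Without 5-week replicate 2, which leaves 1 library at 5 weeks, the members' median stood 0.05 above that of all genes, against 0.23. Library totals and pan-endocrine scaling each gave 58 higher and 0 lower, against 42.2% and 43.3% of all genes higher and with the median of all genes at 0.81 and 0.71.

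Fold changes of the members differed with transcript length in several comparisons. The median transcript length of the members was 855 bases, against 1687 over all genes tested. Of 48 members with a median transcript of up to 1000 bases, the median log2 fold change from 1 to 3 weeks was -0.27 and 4 fell, and over the 27 longer members it was -0.01 and 0 fell. Across the 75 members, which come from the same libraries, Spearman's rho between length and this fold change was 0.33 and Pearson's r with log2 length was 0.32. Over all genes the medians were -0.03 for 5996 genes of up to 1000 bases, of which 257 fell, and 0.03 for 14184 longer genes, of which 323 fell. From 1 to 5 weeks the medians of short and long members were 0.14 and 0.33, with a rho of 0.38. Over all genes these medians ran the other way, at 0.04 and -0.004. Against wild type rho was -0.03 at 1 week, 0.26 at 3 weeks and 0.31 at 5 weeks, and from 3 to 5 weeks it was -0.03. Short and long genes overall had medians of -0.02 and -0.07 at 3 weeks and 0.09 and -0.09 at 5 weeks against wild type. The ratio of 5-week replicate 2 to replicate 3 also differed with length, with a median log2 ratio of 0.57 over the short and 0.20 over the long members and a rho of -0.22. RNA length, amplification and the biology of these genes were not separated, and their part in these values was not tested.

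**Figure D5:**
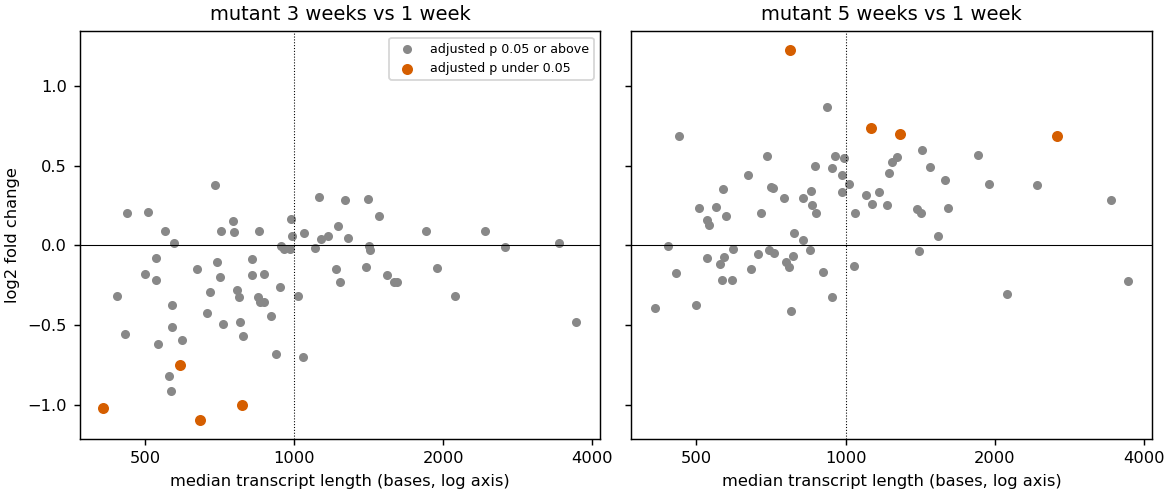
Log2 fold change of each of the 75 members against its median transcript length in bases (log axis), from 1 to 3 weeks (left) and from 1 to 5 weeks (right); orange points passed an adjusted p under 0.05 and the dotted line is at 1000 bases. The 4 members that fell from 1 to 3 weeks all lie left of the line, as do 48 of the 75 members. Over all genes 257 of 5996 genes of up to 1000 bases and 323 of 14184 longer genes fell.

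By origin, 46 of the tested members were grouped as homologues of bacterial ribosomal proteins and 29 as mitochondria-specific, after the values were seen. Mrpl47 and Mrpl55 were counted as mitochondria-specific although both have bacterial relatives, so the counts by origin are approximate. At 5 weeks 21 of the 46 and 13 of the 29 were higher, with medians of 0.52 and 0.60. At 3 weeks the homologues had a median of 0.15, with 5 higher and 3 lower, and the mitochondria-specific proteins 0.32, with 6 higher and 0 lower. By subunit, 22 of 46 large-subunit and 12 of 29 small-subunit members were higher at 5 weeks, with medians of 0.57 and 0.53. At 1 week 8 large-subunit members and 1 small-subunit member were higher, although the medians were 0.35 and 0.37.

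Some members were described for their roles whatever their change. Mrpl10 and Mrpl12 form the stalk that recruits translation factors, and Mrpl12 also binds the mitochondrial RNA polymerase in human cells. Mrpl10 had 15.7, 14.4 and 18.3 CPM in wild type and 32.5 and 28.3 at 5 weeks (0.91, SE 0.18, edgeR adjusted p = 0.0011). Mrpl12 had 5.42, 4.34 and 5.52 CPM in wild type and 6.41 and 6.65 CPM at 5 weeks. With 7.04, 8.28 and 6.12 CPM at 1 week and 4.96, 4.26 and 4.02 CPM in the 3-week libraries, Mrpl12 passed the test in no comparison. The related Mrps18 genes did not share a pattern. Mrps18a, whose protein sits in the large subunit, kept to 12.6 to 21.4 CPM over all libraries and was not called. Mrps30, also found in the large subunit despite its name, ranged from 6.76 to 12.8 CPM and was not called. Mrps36, which in human and yeast cells belongs to the oxoglutarate dehydrogenase complex, had 0.97 to 2.69 CPM, Mrpl23 had 0.47 to 1.49 and Mrps6, which overlaps Slc5a3, had 3.08 to 7.25, and none of these 3 was called in any comparison. Their low counts give wide errors, for example an SE of 0.58 on the log2 scale for Mrpl23 at 5 weeks.

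Other genes of mitochondrial translation were counted from lists of known components. Over all genes 5.34%, 8.24% and 15.0% were called higher at 1, 3 and 5 weeks and 4.42%, 7.76% and 14.1% lower, and the small lists are read against these shares. Of 7 mitochondrial ribosome subunits with other names, 2, 2 and 4 were higher at 1, 3 and 5 weeks and 0 lower at each time. Chchd1 had log2 fold changes of 1.10, 0.94 and 0.93 at the 3 times (SE 0.23, 0.22 and 0.24, edgeR adjusted p = 0.0052, 0.0074 and 0.0078). Dap3, a GTP-binding small-subunit protein, had 23.3, 28.5 and 22.6 CPM in wild type and 45.0, 42.8 and 52.4 at 3 weeks (0.91, SE 0.16, edgeR adjusted p = 0.00082). Of 13 translation factors 0, 1 and 3 were higher and 0 lower. The GTPase Guf1 had 21.5 to 28.9 CPM in wild type, 23.1 to 31.2 at 1 week and 35.3 and 36.7 at 5 weeks, against 63.9, 53.8 and 64.7 CPM in the 3-week libraries (1.25 at 3 weeks, SE 0.16, edgeR adjusted p = 3.34e-05). Of 22 tested genes of ribosome assembly and ribosomal RNA modification 2, 3 and 7 were higher and 0 lower, and the largest rise was that of Rnmtl1, a methyltransferase of the large ribosomal RNA, at 5 weeks (1.32, SE 0.35, edgeR adjusted p = 0.0077).

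Of 7 tested genes that transcribe or maintain mitochondrial DNA or stabilise its RNAs, 0, 1 and 3 were higher and 0 lower at 1, 3 and 5 weeks. Tfam, which packages and transcribes mitochondrial DNA, was called at 3 weeks (0.59, SE 0.20, edgeR adjusted p = 0.048) and 5 weeks (0.63, SE 0.21, edgeR adjusted p = 0.035), and Lrpprc, which binds mitochondrial messenger RNAs, at 5 weeks (0.69, SE 0.14, edgeR adjusted p = 0.0016). Of 10 nuclear regulators of mitochondrial genes, 1 was lower at 1 week and 2 at 3 weeks, with 0 higher, and 1 was higher and 1 lower at 5 weeks. The coactivator Ppargc1a fell to 7.22, 5.65 and 9.90 CPM at 1 week from 14.7 to 25.6 in wild type and had 4.59 and 2.75 at 5 weeks, with log2 fold changes of -1.31, -1.47 and -2.36 (edgeR adjusted p = 0.0052, 0.00096 and 2.78e-05). Myc fell at 3 weeks (-1.81, SE 0.32, edgeR adjusted p = 0.00070), and Gabpb1, a subunit of the ETS-binding factor GABP, rose at 5 weeks (0.92, SE 0.19, edgeR adjusted p = 0.0013). No relation between these regulators and the members was tested.

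The 80 tested genes of the cytosolic ribosome were set beside the members. At 1 week 14 were higher and 1 lower, with a median log2 fold change of 0.43 (5.34% and 4.42% of all genes), at 3 weeks 0 were higher and 12 lower, with a median of -0.28 (8.24% and 7.76% of all genes), and at 5 weeks 4 were higher and 0 lower, with a median of 0.26 (15.0% and 14.1% of all genes). From 1 to 3 weeks 34 of the 80 fell, with a median of -0.75, while the members' median was -0.18 and 4 of 75 fell, against 2.87% of all genes. From 3 to 5 weeks the medians were 0.58 for the cytosolic and 0.38 for the mitochondrial proteins. The difference between these lists was not tested.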

How the data were processed

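Islet RNA was measured by bulk RNA-seq after linear amplification. Per the labels and the study's methods, the authors used bcl2fastq 2.17.1.14 for demultiplexing and cutadapt 1.10 for trimming, removed ribosomal RNA reads with Bowtie2 2.2.8, aligned to mm9 with STAR 2.5.3a and counted uniquely aligned, unambiguous reads with HTSeq in union mode. The values deposited by the authors and used here are raw counts per gene and library, and a deposited median transcript length in bases. Counting by strand is not stated in the sources used here. The deposited fold changes and p-values of the authors' DESeq2 comparisons, 11 normalised columns and 6 gene lists were not used.

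Groups and replicate numbers came from the titles. Counts were filtered with filterByExpr, scaled by TMM and fitted in edgeR 4.0.16 (R 4.3.3) with 1 quasi-likelihood model over 4 groups and 6 contrasts, adjusted over 20180 genes. A change is called at an adjusted p under 0.05. The SE is the log2 fold change over the square root of F. Each replicate is a pool of animals, so the p-values reflect the spread among such pools. CPM per kb used union exon lengths of GENCODE M1. Members, lists and tests were chosen with earlier results of these data known. Named were the 5 largest rises and 3 largest falls per comparison with wild type and the 2 largest each way between times, among called members with ranges that did not overlap, 12 members by role, the 3 highest and 3 lowest per kb in wild type, members left out by the filter and Taf4a, and up to 3 called genes of each other list. Members named beyond this rule were chosen after their values were seen. Alternatives were DESeq2 1.42.0, other scalings, no filter, fits of 2 groups, a replicate block and leaving out each library.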

Additional observations from a re-analysis of the deposited data

Results flagged for a closer look

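Members whose effects against wild type differed between times, by the test between the mutant times themselves, were looked at again. From 1 to 3 weeks these were Mrpl34 (log2 fold change -1.10), Mrpl52 (-1.02), Mrps28 (-0.999) and Mrps12 (-0.75), all lower at 3 weeks. From 1 to 5 weeks they were Mrps26 (0.69), Mrpl4 (0.70), Mrpl49 (0.74) and Mrps18b (1.23), all higher at 5 weeks. From 3 to 5 weeks they were Mrpl4 (0.65), Mrps26 (0.70), Mrps10 (0.71), Mrpl15 (0.75), Mrpl17 (0.86), Mrps28 (0.93), Mrpl34 (0.95), Mrps18b (1.55) and Mrps34 (1.55), all higher at 5 weeks. Of these, Mrpl17 from 3 to 5 weeks was called whichever library was left out, and every other lost its call without at least 1 library. With no timed wild type, age and time after Taf4 inactivation cannot be told apart. No group had the 4 libraries that a check for single outlying samples needs.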

How the results depend on the processing

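Called members higher than wild type at 1 week numbered 14 with DESeq2, 3 with pan-endocrine scaling and 20 with no filter on low counts, against 9. Over all genes 6.98%, 2.02% and 4.84% were called higher in these fits, against 5.34%. At 3 weeks 47 were higher with library totals, 3 with pan-endocrine scaling, 19 with no filter and 17 in a fit of the 2 groups alone, against 11. The shares of all genes called higher were 35.6%, 2.44%, 7.25% and 15.6%, against 8.24%. With library totals 0 members were lower, against 3, and 2.55% of all genes, against 7.76%. At 5 weeks 73 were higher with library totals and 65 with pan-endocrine scaling, against 34. Of all genes 49.4% and 35.1% were then called higher, against 15.0%. With no filter the members' median stood 0.838 above that of all genes, against 0.59. Between 1 and 3 weeks library totals gave 3 higher and 0 lower, and the fit of 2 groups 7 lower, against 0 and 4. Library totals called 10.4% of all genes higher and 1.26% lower, against 0.942% and 2.87%. The fit of 2 groups called 4.6% of all genes lower. Between 1 and 5 weeks library totals and pan-endocrine scaling each gave 58 higher, no filter 7 and the fit of 2 groups 1, against 4. These 4 fits called 42.2%, 43.3%, 5.63% and 3.88% of all genes higher, against 7.68%. Between 3 and 5 weeks library totals gave 23 higher, pan-endocrine scaling 71 and no filter 15, against 9. All-gene shares called higher were 9.84%, 43.9% and 4.4%, against 6.07%. With library totals the 3-week change of Mrps5 turned to 0.0127 (edgeR adjusted p = 0.98). Library totals and pan-endocrine scaling move all genes together, by their construction, and the cause of the other shifts was not tested.

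The replicate block, with the number of the title as a term, gave 6 higher at 3 weeks, against 11, and 5 from 3 to 5 weeks, against 9. The block called 6.57% of all genes higher at 3 weeks, against 8.24%, and 3.86% from 3 to 5 weeks, against 6.07%. It moved no other count of members by more than 1.5 times. The labels give no shared animal or day, and of 15 pairs with the same number 2 correlated above 0.1 in their deviations (from -0.372 to 0.211), so the numbers were not read as pairs.

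With each library left out in turn, members higher ranged from 3 to 11 at 1 week, 2 to 12 at 3 weeks and 14 to 42 at 5 weeks, and members lower from 1 to 2 at 3 weeks and 0 to 1 at 5 weeks. Over all genes 2.2% to 5.71% were called higher at 1 week and 4.41% to 6.84% at 3 weeks in these fits. At 3 weeks 4.85% to 6.49% of all genes were called lower. The 14, the 42 and the 1 lower came from fits with 1 library at 5 weeks and were not read further. Without wild-type replicate 1, 2 or 3, members higher at 5 weeks numbered 24, 27 and 32. Of all genes 11.2%, 11.5% and 14.2% were then called higher. Over every left-out library the members' median at 5 weeks stood 0.456 to 0.877 above that of all genes. From 1 to 3 weeks 0 to 4 were lower, against 0.828% to 3.52% of all genes. From 1 to 5 weeks the median distance was 0.052 to 0.434. From 3 to 5 weeks the distance was 0.213 to 0.614. Scaling by relative log expression or without acinar genes moved no count by more than 1.5 times. With 2 libraries at 5 weeks, and as few as 5 reads for Mrpl23 in wild-type replicate 1, small changes could go undetected.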
